A study of Mus musculus with 6 samples.

Results

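Regulators of G protein signalling (RGS) were examined in murine pre-B cells that the oncogene BCR-ABL1 had turned into leukaemia cells. BCR-ABL1 is the constantly active tyrosine kinase made by the Philadelphia chromosome. The set held 10 RGS genes: Rgs1, Rgs2, Rgs3, Rgs9, Rgs10, Rgs12, Rgs14, Rgs16, Rgs18 and Rgs19. Each gene was represented by a probe set that carries its symbol alone in the platform annotation, with the brightest on average over the 6 arrays taken where there were several. This left 9 of the 10 genes among 19938 genes in all, because Rgs10 was matched to no probe set. The members were selected on the measured log2 differences between the genotypes, among them the large one of Rgs18, so their values are described here without a test.

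The arrays hybridised total RNA of pre-B cells on a mixed C57Bl/6-SV129j background, 3 from Dusp6 WT mice and 3 from Dusp6 KO mice. Both genotypes carry BCR-ABL1, so every value refers to transformed cells. Dusp6 encodes a cytoplasmic phosphatase that inactivates the kinase ERK, and its loss is the variable under study. The age of the mice and the part of Dusp6 that was deleted are not given in the labels, and neither is the number of mice or cultures behind the 3 arrays of each genotype. The p-values below thus rest on the scatter of these arrays alone, which may be of technical origin.

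G protein-coupled receptors signal by loading the G alpha subunit with GTP, which frees it from the G beta and G gamma subunits. RGS proteins bind the active G alpha subunit through their RGS domain and speed the hydrolysis of its GTP, which ends the signal. In B cells they are known as brakes on chemokine receptors, which act mainly through the Gi class of G alpha subunits. The canonical RGS genes fall into the R4, R7, R12 and RZ subfamilies, which differ in the domains beside the RGS domain.

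Dusp6 itself matched the labels, with log2 signals of 12.36, 12.46 and 12.49 on the wild-type arrays and 9.04, 9.06 and 9.15 on the knockout arrays (log2 difference −3.36 ± 0.052, SE; limma adjusted p = 4.3e-10). The genotypes lay apart on the first principal component, which held 82.2% of the variance. Of the precursor B cell markers, 14 of 15 were matched, and all 14 lay above the olfactory receptor range described next in both genotypes. Of these 14, 1 rose (7.14%) and 6 fell (42.9%) in limma, beside 9.66% and 10.2% of all genes. The mean log2 signal of the 14 was 12.74 to 12.75 on the wild-type and 12.53 to 12.54 on the knockout arrays. The largest differences were −1.42 for Dntt, −0.43 for Rag2, −0.31 for Il7r and −0.27 for Vpreb1. The 1 that rose, Rag1 (0.20, limma adjusted p = 0.027), was singled out after its value was seen. Its call was lost without wild-type replicate 1 or 3, or knockout replicate 2 or 3. Vpreb1 lost its call without knockout replicate 2 or 3. The arrays carry no detection call in the values used here, so the 1027 olfactory receptor genes, which blood cells do not normally express, were taken as a rough guide to background. Their mean log2 signals ran from 4.36 at the 5th percentile to 7.95 at the 95th percentile, and because probe sets differ in affinity a level inside this range does not show that a gene is silent. The knockout values of Dusp6 lay above this range, and which part of Dusp6 its probe set covers was not analysed.

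Rgs18 was the member with the largest difference, and it was higher in the knockout cells on every array. Rgs18 is an R4 protein known from platelets, megakaryocytes and other blood cells. Its probe set 10358421 gave log2 signals of 7.14, 7.15 and 7.29 on the wild-type arrays and 12.06, 12.31 and 12.22 on the knockout arrays. The groups were separated by a gap of 4.77, which is far wider than the ranges within them (0.15 in wild type and 0.24 in knockout). Mean signals of 7.19 ± 0.083 and 12.20 ± 0.12 (SD, n = 3 each) gave a log2 difference of 5.0 ± 0.068 (SE), a 32.0-fold ratio of signals. The wild-type values lay inside the olfactory receptor range and the knockout values far above it, so the lower end of this ratio may be background signal, and the ratio and its error do not measure the fold between RNA amounts. In bulk RNA, more cells with Rgs18 and more Rgs18 RNA per cell cannot be told apart.

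**Figure D1:**
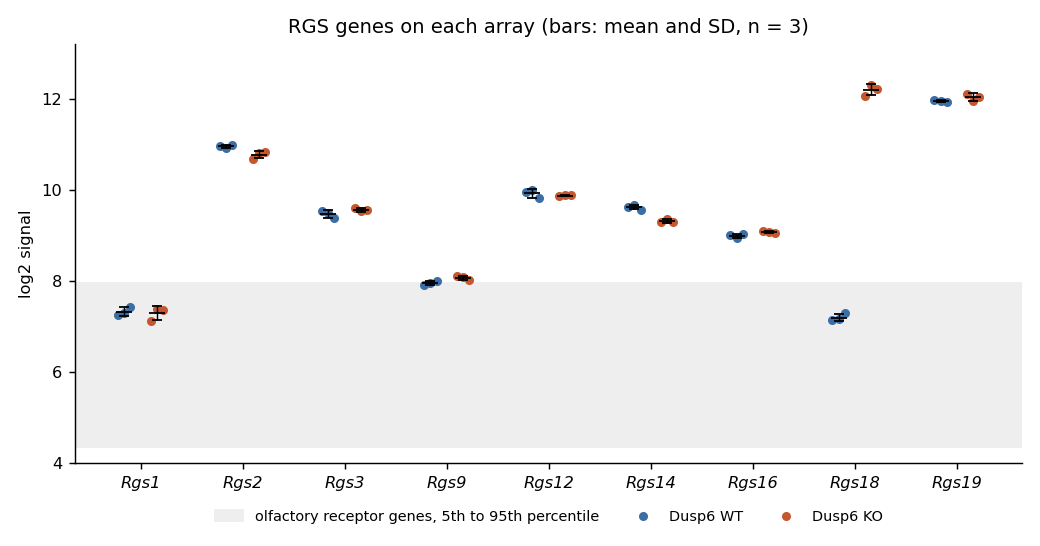
Log2 signal of the 9 measured RGS genes (y axis) on each of the 6 arrays, with the Dusp6 WT arrays in blue, the Dusp6 KO arrays in orange, black bars for the mean and SD of 3 arrays, and a grey band for the 5th to 95th percentile of olfactory receptor genes. The knockout values of Rgs18 sit between 12.06 and 12.31 while its wild-type values lie in the grey band; every other gene differs by at most 0.30.

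Markers of other blood cells were read beside Rgs18. Of 14 megakaryocyte and platelet markers, 10 were matched, and none of those 10 passed in either direction (limma over all genes; 0 at an unadjusted p under 0.05). Their mean log2 signal was 7.79 to 7.81 on the wild-type arrays and 7.75 to 7.83 on the knockout arrays. The platelet chemokine genes Pf4 (6.89 in wild type and 6.87 in knockout) and Ppbp (6.36 and 6.30) lay inside the olfactory receptor range in both genotypes, and the platelet integrin gene Itga2b stood at 8.73 and 8.67. These 3 were chosen as defining markers after their values were seen. Of 19 myeloid markers, 2 rose (10.5%) and 0 fell, beside 9.66% and 10.2% of all genes (3 and 1 at an unadjusted p under 0.05). Mean log2 signals of these 19 were 7.75 to 7.79 in wild type and 7.82 to 7.85 in knockout. The lysozyme gene Lyz2 rose by 0.70 and its copy Lyz1 by 0.31, and the signals of such near-identical genes cannot be kept apart with certainty on an array; 1 myeloid marker was called lower without wild-type replicate 3 or knockout replicate 1. Their part in the Rgs18 values was not tested. Among 8 matched mature B cell markers, 5 were higher (62.5%) and 1 lower (12.5%). Mean log2 signals of these 8 were 8.53 to 8.67 in wild type and 8.99 to 9.08 in knockout. Cxcr5 rose by 1.45, Cd22 by 1.33 and Ms4a1 by 0.85. Both means of Ms4a1 (6.45 in wild type and 7.30 in knockout) lay inside the olfactory receptor range. Without wild-type replicate 1 or 2, or knockout replicate 1 or 3, 3 of these 8 were called higher. The 1 that fell, Cr2 (−0.25), lost its call without wild-type replicate 1 or 2, or knockout replicate 2. The part of this list in the Rgs18 values was not tested either. None of the 4 matched erythroid markers, of 7 listed, passed. T and NK cell markers gave 1 higher and 1 lower of 15 (6.67% each), and 2 higher without wild-type replicate 3. Cd8b1, the 1 that rose (0.23), had both means (7.39 and 7.61) inside the olfactory receptor range. The 1 that fell, the T cell kinase gene Zap70, kept its call only when knockout replicate 1 was the array left out (adjusted p of 0.0605 to 0.15 otherwise).

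Rgs18 lies at one end of a cluster of 5 R4 genes on chromosome 1, in the order Rgs2, Rgs13, Rgs1, Rgs21 and Rgs18, and its neighbours in the cluster did not share its values. Rgs1, known in B cells for damping the response to the chemokine Cxcl12, read 7.25, 7.29 and 7.43 in wild type and 7.11, 7.38 and 7.37 in knockout. The groups overlapped, the difference was −0.035 ± 0.078 (SE), and both groups lay inside the olfactory receptor range. Rgs2, which acts mainly on the Gq class of G alpha subunits, read 10.97, 10.92 and 10.97 in wild type and 10.68, 10.81 and 10.83 in knockout. All 3 knockout values were lower, with a gap of 0.097 between the groups and a difference of −0.18 ± 0.049 (SE).

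The genes of the cluster that are not in the set gave level values. Rgs13, known from germinal centre B cells, had means of 5.13 ± 0.12 and 5.15 ± 0.0082 (SD, n = 3 each; log2 difference 0.016, limma adjusted p = 0.90). For Rgs21, known from taste cells, the means were 5.35 ± 0.080 and 5.35 ± 0.074 (log2 difference 0.0013, adjusted p = 0.99). Both lay low in the olfactory receptor range. The 6 measured genes on either side of the cluster were added after the values were seen. Of these 12, 2 rose and 1 fell, beside 9.66% and 10.2% of all genes. Pla2g4a, a phospholipase that frees arachidonic acid, fell by 0.77 ± 0.047 (SE; adjusted p = 3.0e-06) and Glrx2, a mitochondrial glutaredoxin gene, rose by 0.44 ± 0.054 (adjusted p = 0.00031). Odr4 rose by 0.19 ± 0.048 (adjusted p = 0.021), a call lost without wild-type replicate 1 (0.085) or 3 (0.059), or knockout replicate 2 (0.054) or 3 (0.080). Brinp3, next to Rgs18 on its outer side, differed by 0.088 ± 0.051 (adjusted p = 0.30).

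**Figure D2:**
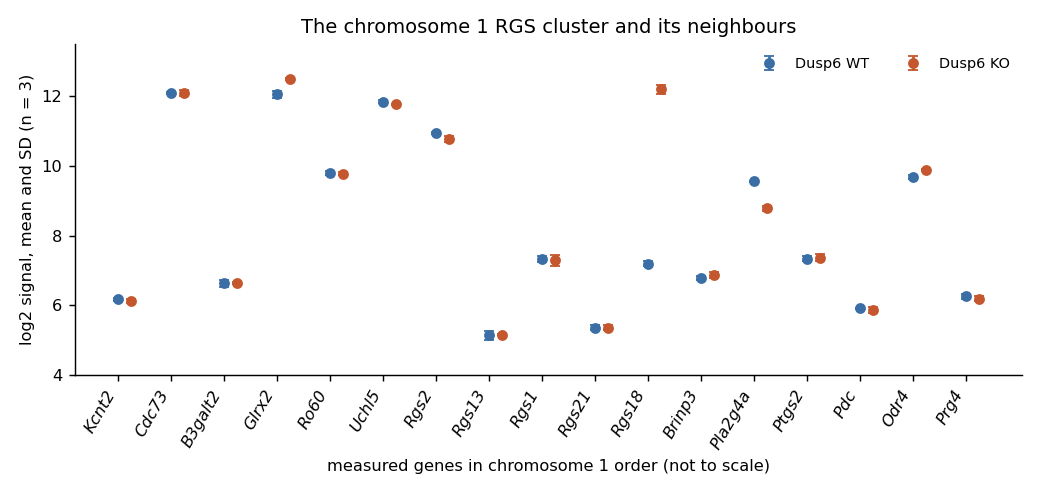
Mean log2 signal with SD over 3 arrays (y axis) of the 17 measured genes around the chromosome 1 RGS cluster, in gene order without distances (x axis), with Dusp6 WT in blue and Dusp6 KO in orange. Rgs18 stands at 7.19 and 12.20, whereas the genotypes of Rgs13, Rgs1 and Rgs21 lie on each other.

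RefSeq promoter windows (GRCm38.p6; 250 bases before to 50 after a start) were matched for 7 of the 10 genes, in 11 windows. The 3 genes without an entry were Rgs1, Rgs14 and Rgs18. The windows were searched on both strands for 6 motifs: AP-1 (TGANTCA), CRE (TGACGTCA), ETS (CCGGAAG), PU.1 (GAGGAAGT), E-box (CACGTG) and E2A (CAGGTG). Of all 32851 windows in the table, 7.81%, 1.79%, 8.86%, 3.2%, 7.15% and 20.2% held them. Matches fell in 4 of the 11 windows, those of 3 genes. The share of all windows with any of the 6 motifs was not counted, so nothing is read from this count. A match is a description of the letters and not a bound site. The window of Rgs2 is shown because Rgs2, at the opposite end of the cluster from Rgs18, is the only cluster gene of the set with an entry. Those of Rgs12 and Rgs19 are shown because they hold AP-1 or PU.1 letters. Rgs13 and Rgs21, outside the set, were not looked up. Capitals mark the matches, and Rgs2 (chr1:144004100-144004399, minus strand) has none of the 6. Rgs12 has 2 starts, and the second (chr5:34998828-34999127, plus strand) holds AP-1 and, on the other strand, PU.1. Rgs19 (chr2:181693928-181694227, minus strand) holds PU.1, in letters that also lie in the overlapping window of its second start, which holds an E-box too. The window of Rgs9 holds E2A letters at 2 places.
Rgs2: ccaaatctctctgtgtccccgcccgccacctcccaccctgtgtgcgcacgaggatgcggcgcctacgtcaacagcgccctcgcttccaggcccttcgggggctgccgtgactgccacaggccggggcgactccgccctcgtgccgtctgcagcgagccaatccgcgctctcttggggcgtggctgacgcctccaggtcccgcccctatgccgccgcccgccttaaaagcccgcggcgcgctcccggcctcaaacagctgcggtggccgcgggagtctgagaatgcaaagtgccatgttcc
Rgs12: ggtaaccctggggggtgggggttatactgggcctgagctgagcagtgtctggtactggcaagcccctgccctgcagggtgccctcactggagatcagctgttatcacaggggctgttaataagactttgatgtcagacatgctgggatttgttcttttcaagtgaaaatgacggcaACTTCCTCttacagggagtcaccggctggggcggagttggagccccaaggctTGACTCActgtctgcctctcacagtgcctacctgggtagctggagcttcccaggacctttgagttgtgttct
Rgs19: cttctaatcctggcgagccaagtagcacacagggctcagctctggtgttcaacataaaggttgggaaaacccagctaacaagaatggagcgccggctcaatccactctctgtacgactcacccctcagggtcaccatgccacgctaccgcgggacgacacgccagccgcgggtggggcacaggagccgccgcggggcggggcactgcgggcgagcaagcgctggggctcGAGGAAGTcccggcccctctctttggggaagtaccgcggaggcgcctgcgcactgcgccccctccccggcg

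The remaining R4 members differed little between the genotypes. Rgs16, known as an activation-induced brake in lymphocytes, read 9.01, 8.93 and 9.03 in wild type and 9.09, 9.08 and 9.04 in knockout. The knockout values were all higher, by a gap of only 0.016, and the difference was 0.080 ± 0.044 (SE). Rgs3, whose long forms carry further domains ahead of the RGS domain, was the single member with more than 1 probe set. Its brighter probe set 10607113 read 9.53, 9.49 and 9.38 in wild type and 9.60, 9.52 and 9.56 in knockout, and these groups overlapped (difference 0.093 ± 0.051, SE). The dimmer probe set 10505326 read 8.72, 8.76 and 8.77 in wild type and 8.94, 8.98 and 8.95 in knockout, without overlap and with a difference of 0.21. The probe sets agree in sign but not in size, and which transcripts each one covers was not analysed here.

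Among the R12 members, Rgs14 was lower in the knockout cells. Rgs14 carries RAS-binding domains and a GoLoco motif, which holds Gi subunits in the GDP-bound state, beside its RGS domain. Its log2 signals were 9.62, 9.66 and 9.57 in wild type and 9.28, 9.36 and 9.30 in knockout. The groups did not overlap, with a gap of 0.20, and the means were 9.62 ± 0.046 and 9.31 ± 0.043 (SD, n = 3 each). The difference of −0.30 ± 0.045 (SE), or 1.23-fold lower, is the second in size among the members. Rgs12, its relative with a similar set of domains, read 9.96, 9.99 and 9.82 in wild type and 9.85, 9.88 and 9.88 in knockout. These groups overlapped, with a difference of −0.054 ± 0.053 (SE).

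The R7 and RZ subfamilies had 1 member each. Rgs9, the R7 protein known from photoreceptors and the striatum, read 7.91, 7.95 and 8.01 in wild type and 8.11, 8.07 and 8.02 in knockout. These values straddled the upper edge of the olfactory receptor range, and the groups were separated by only 0.013 (difference 0.11 ± 0.046, SE). Rgs19, the RZ protein also called GAIP, read 11.98, 11.95 and 11.93 in wild type and 12.11, 11.95 and 12.04 in knockout. The lowest knockout value fell among the wild-type values, and the difference was 0.081 ± 0.050 (SE).

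Across the set, 5 of the 9 measured members had a positive and 4 a negative difference. Without Rgs18 the differences ran from −0.30 to 0.11, with a median of 0.023, beside a median of 0.0018 over all 19938 genes. Values did not overlap between the genotypes in 5 members (Rgs2, Rgs9, Rgs14, Rgs16 and Rgs18), where 35.7% of all genes did not overlap. In the fit over all genes, limma placed 1 member (Rgs18) past an adjusted p of 0.05 as higher, beside 9.66% of all genes, and 2 (Rgs2 and Rgs14) as lower, beside 10.2%. These counts describe the choice of the members and are not a result about them.

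The RGS genes outside the set, the canonical ones and Rgs22, were tested in the same fit. Of 11, 1 rose and 1 fell (9.09% each, beside 9.66% and 10.2% of all genes), and their median difference was −0.017. Rgs20, an RZ gene, fell from 8.22, 8.18 and 8.29 in wild type to 7.47, 7.22 and 7.45 in knockout (log2 difference −0.85 ± 0.069, SE; limma adjusted p = 2.2e-05). Its knockout values lay inside the olfactory receptor range and its wild-type values above it. Rgs7, an R7 gene known from neurons, rose from 6.03, 5.90 and 6.04 to 6.66, 6.61 and 6.72 (0.67 ± 0.053; adjusted p = 1.7e-05), with all values inside that range. In the subfamily of Rgs18 the differences of Rgs4, Rgs5 and Rgs8, like those of Rgs13 and Rgs21, did not pass.

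**Figure D3:**
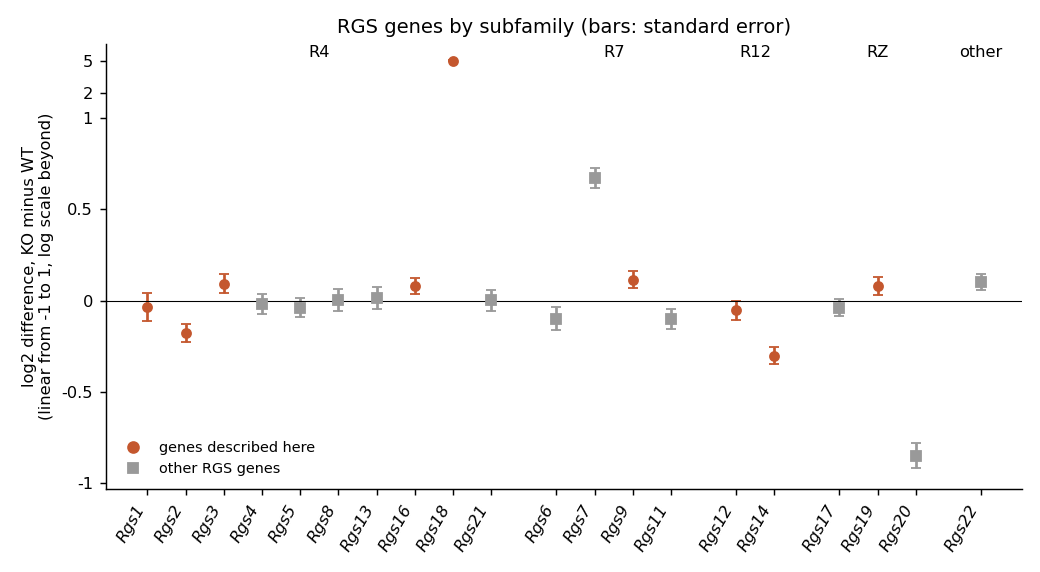
Log2 difference (KO minus WT) with limma's standard error for 20 measured RGS genes, those of the R4, R7, R12 and RZ subfamilies together with Rgs22 (x axis). The y axis is linear between −1 and 1 and logarithmic beyond. Orange circles are the members and grey squares the other RGS genes, and Rgs18 (5.0), Rgs7 (0.67) and Rgs20 (−0.85) lie farthest from 0.

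Genes that work with the RGS family were counted in 8 lists, over which 25 of 136 measured genes rose and 20 fell, beside 9.66% and 10.2% of all genes. The lists' median was 0.017. The count of genes that fell was 13 without wild-type replicate 1 or without wild-type replicate 2.

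The G alpha subunits, on which RGS proteins act, included 3 of 15 that fell and 0 that rose (3 and 3 at an unadjusted p under 0.05; limma). Gnai1, a Gi subunit, fell from 10.91, 10.83 and 10.95 in wild type to 9.72, 9.84 and 9.82 in knockout, with no overlap (log2 difference −1.10 ± 0.050, SE; limma adjusted p = 4.0e-07). The other Gi subunits, singled out after their values were seen, differed by 0.014 ± 0.042 for Gnai2 (adjusted p = 0.88) and by 0.076 ± 0.049 for Gnai3 (0.35). The Gq class genes Gna11 and Gnaq fell by 0.23 and 0.15 (adjusted p = 0.0498 and 0.0496). The call of Gna11 was lost without wild-type replicate 1 (adjusted p = 0.13) or 2 (0.15), or knockout replicate 2 (0.12) or 3 (0.078). Gnaq kept its call only when knockout replicate 3 was the array left out (adjusted p of 0.105 to 0.141 otherwise). Only Gnai1 was called lower without wild-type replicate 1 or 2, or knockout replicate 2, and 1 G alpha gene was called higher without wild-type replicate 3.

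Among 17 G beta and G gamma subunits, 3 rose and 2 fell, and their median was −0.0009. Gng12 fell from 12.10, 12.07 and 12.07 to 11.33, 11.20 and 11.19 (log2 difference −0.84 ± 0.049; limma adjusted p = 2.1e-06), and Gnb4 fell by 0.42 ± 0.046 (0.00013). Gng4 rose from 11.69, 11.58 and 11.64 to 12.41, 12.36 and 12.34 (0.73 ± 0.045; adjusted p = 3.0e-06), and Gng2 rose by 0.46 ± 0.070 (0.0013). None of these 4 groups of values overlapped. The remaining gene that rose, Gng10 (0.18 ± 0.049, adjusted p = 0.030), was singled out after its value was seen. Its call was lost without wild-type replicate 2 (0.097) or 3 (0.109), or knockout replicate 2 (0.076) or 3 (0.103).

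Calls among other regulators of G alpha and of its receptors went both ways. Of 8 GoLoco and exchange regulators, 0 rose and 1 fell (1 and 2 at an unadjusted p under 0.05; limma), namely Gpsm2, a GoLoco protein of spindle orientation, by 0.32 ± 0.053 (adjusted p = 0.0022); 1 was called higher without knockout replicate 2. Among 7 GPCR kinases and arrestins, which switch off the receptor itself, Grk5 fell by 0.18 ± 0.048 (adjusted p = 0.025) and Grk1 rose by 0.14 ± 0.043 (0.044). Both means of Grk1 (7.29 in wild type and 7.43 in knockout) lay inside the olfactory receptor range. The call of Grk5 ended when wild-type replicate 1 (adjusted p = 0.060) or 2 (0.089) was left out, or knockout replicate 1 (0.069) or 3 (0.056), and that of Grk1 with any 1 array left out (0.056 to 0.163). Among 11 RGS partners and other genes with an RGS-homology domain, 3 rose (27.3%, beside 9.66% of all genes) and 1 fell. Arhgef12, an exchange factor gene with an RGS-homology domain, fell from 9.06, 9.06 and 9.05 in wild type to 8.30, 8.34 and 8.44 in knockout (log2 difference −0.70 ± 0.048; limma adjusted p = 6.3e-06). Its relative Arhgef11 rose by 0.31 ± 0.049 (adjusted p = 0.0016). Snx14, a sorting nexin gene, rose by 0.57 ± 0.048 (adjusted p = 2.5e-05) and the Wnt feedback gene Axin2 by 0.44 ± 0.081 (0.0041).

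Effectors downstream of G proteins went both ways. Of 35, 6 rose and 6 fell, with a median of 0.029, and 3 fell without wild-type replicate 1 or 2, or any 1 knockout array. Among the regulatory subunits of the cyclic AMP-dependent kinase, Prkar2a rose and Prkar2b fell. Prkar2a rose from 9.57, 9.46 and 9.64 to 10.43, 10.67 and 10.69 (log2 difference 1.04 ± 0.075; limma adjusted p = 9.0e-06). Prkar2b fell from 11.28, 11.22 and 11.26 to 10.62, 10.73 and 10.78 (−0.54 ± 0.050; adjusted p = 5.2e-05). The other two, Prkar1a and Prkar1b, added after their values were seen, did not pass (0.046 ± 0.043 and −0.029 ± 0.043; adjusted p = 0.54 and 0.72). Rapgef3, an exchange factor opened by cyclic AMP, rose by 0.50 ± 0.072 (0.00093), and Pik3r6, an adaptor of the PI3 kinase that G beta and gamma subunits activate, rose by 0.40 ± 0.047 (0.00024).

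The receptors upstream showed the highest share of calls among these lists. Of 32 G protein-coupled receptors known in lymphocytes, 11 rose and 5 fell, which is 34.4% and 15.6%, and their median was 0.072. Over the 14 alternatives 8 to 11 rose and 3 to 6 fell. The calls of Gpr34, Hrh2, S1pr4 and Cxcr3, singled out after their values were seen, were lost with some single arrays left out. Gpr34 (5.10 in wild type and 5.27 in knockout) and F2r (7.68 and 7.94), also singled out, rose with both means inside the olfactory receptor range. Gpr132, a receptor for lipid and metabolic signals, rose from 9.07, 9.28 and 9.20 to 10.61, 10.37 and 10.47 (log2 difference 1.30 ± 0.072; limma adjusted p = 1.4e-06). S1pr3, a receptor for sphingosine 1-phosphate, fell from 9.53, 9.45 and 9.52 to 8.24, 8.05 and 8.53 (−1.23 ± 0.10; adjusted p = 2.2e-05). The homing receptor genes Cxcr5 and Ccr7 rose by 1.45 and 0.94. The wild-type mean of Cxcr5 (7.59) lay inside the olfactory receptor range, and Cxcr5 is also 1 of the 5 mature B cell markers that rose. Cxcr4, the Gi-coupled receptor for Cxcl12 and singled out after its value was seen, fell by 0.30 ± 0.044 (adjusted p = 0.0010).

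**Figure D4:**
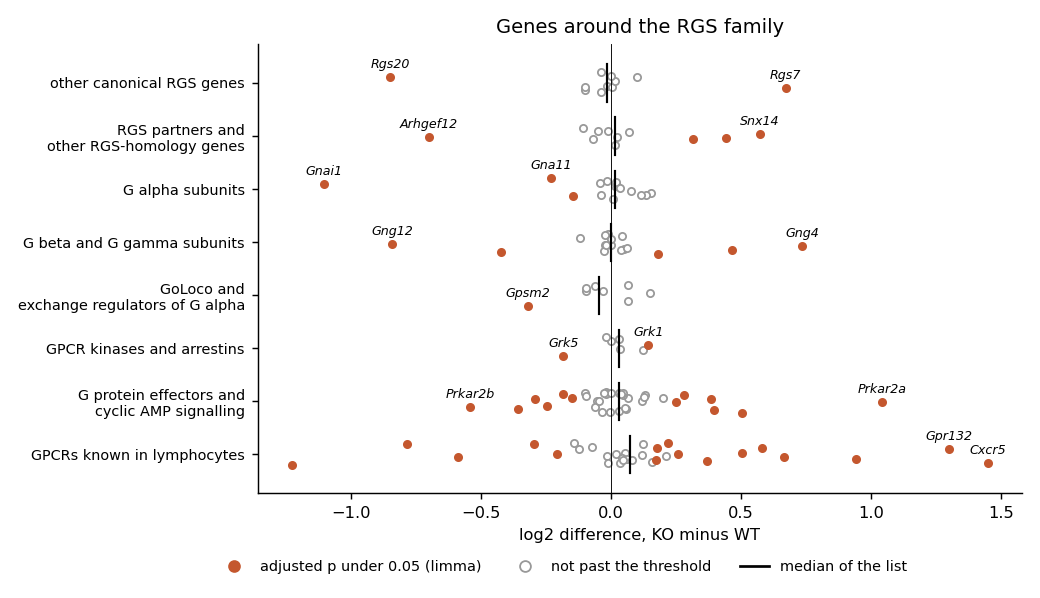
Log2 difference (KO minus WT, x axis) of each measured gene in the 8 lists around the RGS family (y axis, jittered within a list); filled points passed an adjusted p of 0.05 in limma, open points did not, and black lines mark list medians. The medians lie between −0.046 and 0.072, with called genes on both sides of 0 in 6 of the 8 lists.

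Genes with the most similar profile to the members with the largest differences were sought by the Euclidean distance between log2 profiles over the 6 arrays, after the mean of each gene was subtracted. For Rgs18 the 5 nearest were AI506816 (distance 0.56), Ly86 (0.89), Nt5e (1.52), Lrrtm2 (2.02) and Hspb8 (2.12), with differences from 3.30 to 5.25. The wild-type means of AI506816 (7.64) and Nt5e (7.66), like that of Rgs18, lay inside the olfactory receptor range, so no order is read from the sizes of these differences. For Rgs14 they were Esr1 (0.037), Pla2g12a (0.042), Clspn (0.042), Slf2 (0.057) and Rnpep (0.063), with differences from −0.32 to −0.27. With 3 arrays in each of 2 groups, this likeness reflects mainly the size of the difference between the genotypes.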

How the data were processed

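Total RNA of 6 samples was measured on Affymetrix arrays. The values are log2 signals as deposited by the authors, 1 per probe set and array, with RMA and Partek 6.5 named in the submitters' processing notes; values from 3.23 to 14.8 show that scale. Of 35556 probe sets, 21789 carried 1 gene symbol, 1621 several and 12146 none, and each of 19938 genes was represented by its brightest probe set. Listed genes without a probe set of their own were left out. Genes were tested with limma 3.58.1 in R 4.3.3 (genotype as the only term, Benjamini-Hochberg over all genes, threshold 0.05), a procedure also checked on simulated data. Differences are knockout minus wild type. The number of arrays limits the precision, with a median standard error of 0.051.

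The members, lists and tests were chosen with earlier results of these data known. Named genes were Dusp6, the members, up to 4 called genes with the largest differences in each list, and the 5 nearest profiles; others are marked in the text. Gene order came from a RefSeq table of GRCm38.p6.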

Additional observations from a re-analysis of the deposited data

How the results depend on the processing

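The 14 alternatives included repeated quantile normalization, median centring, 2 filters on dim genes and the mean of all probe sets of a gene. The others were a fit and adjustment over every probe set, limma's trend and robust options, the replicate block and leaving out each array. Rgs18 stayed between 4.95 and 5.07, Rgs14 between −0.33 and −0.28, Rgs2 between −0.21 and −0.14 and Dusp6 between −3.40 and −3.33 over those run, and 8 of 9 members kept their sign; Rgs1 ran from −0.082 to 0.052. Of 19938 genes, 1389 to 2189 were called higher and 1418 to 2411 lower. Pathway genes called higher numbered 19 to 26. Those called lower were 13 when every probe set was fitted and adjusted together and 13 to 17 with any 1 array left out, against 20. Why these counts were lower was not tested. Same-numbered arrays did not deviate together (r = 0.0098, −0.12 and 0.053), so the numbers were not taken to pair the samples. The replicate block gave 1681 genes higher and 1764 lower, 21 and 16 of them in the pathway lists. Of the 45 called pathway genes, the filter at the 25th percentile left out 4, among them Rgs7 and Grk1, and that at the median left out 13, among them also Rgs20, Axin2, Arhgef11, Rapgef3 and Cxcr5. Of the members, Rgs1 fell out under both filters and Rgs9 under the stricter one.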
